A study of Mus musculus with 10 samples.

Results

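The genes described are 10 that carry the interleukin-4 (IL-4) signal or answer it: the receptor chains Il4ra, Il13ra1 and Il2rg, the kinases Jak1 and Jak3, the transcription factor Stat6, the feedback inhibitors Socs1 and Cish, and the IL-4-induced transcription factors Irf4 and Egr2. They were chosen by their role, and they are 10 of 21883 protein-coding genes of the mouse annotation, of which 17491 have a start site in the RefSeq promoter table, all 10 included. For each gene the called peaks over its extent and 5 kb on either side were read from 6 lists.

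The study used CUT&Tag, in which an antibody directs a transposase to cut and tag nearby chromatin, in mouse macrophages, with antibodies against nucleophosmin (NPM1), an abundant nucleolar protein that also chaperones histones, and against H3K4me3, histone H3 trimethylated at lysine 4, which marks the starts of active genes. The NPM1 libraries came from wild-type (WT) mice, and 2 of them were made from cardiac macrophages taken at day 3 after a sham operation or after myocardial infarction. The other 2 were made from macrophages derived in culture from WT bone marrow (BMDM), with M-CSF at 50 ng/ml over 7 days, which were either untreated (0 hours) or exposed to IL-4 at 20 ng/ml for 12 hours. The H3K4me3 libraries came from WT and from NPM1 knockout cardiac macrophages, both at day 3 after infarction. The way the knockout was made, its cell type and the number of animals in a library are not stated in the labels. Each of the 6 groups had 1 library, so the differences described here could not be checked in replicates or tested.

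In a macrophage, IL-4 binds the alpha chain encoded by Il4ra, which pairs either with the common gamma chain (Il2rg) or with the IL-13 receptor chain Il13ra1. JAK kinases bound to these chains phosphorylate STAT6, which enters the nucleus and switches on genes of the alternatively activated, reparative state. SOCS1 and CIS are made in response to cytokines and dampen the same receptors, while IRF4 and EGR2 carry the response on to later genes.

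The lists differed as a whole, and this sets the frame for the values of single genes. The sham and untreated NPM1 lists held 58011 and 58989 peaks over a genome-wide background of 1.29 and 1.31 reads. The infarct and IL-4 NPM1 lists held 79893 and 104514 peaks over backgrounds of 3.03 and 4.18 reads, and the WT and knockout H3K4me3 lists 73321 and 52977 peaks over 2.92 and 2.49 reads. Of 7 macrophage marker genes with an annotated start (Cd68, Itgam, Cebpa, Fcer1g, Mertk, Lyz2 and Fcgr1), 7 had an infarct and 7 an IL-4 NPM1 peak within 1 kb of it, 6 a WT and 7 a knockout H3K4me3 peak, and none a sham or untreated NPM1 peak. Of 10 cardiomyocyte markers, 1 had a peak there in each of the sham, infarct, IL-4 and WT lists and none in the untreated and knockout lists. Of 5 fibroblast and 5 endothelial markers, 0 and 2 had a WT H3K4me3 peak and 4 and 3 a knockout one, and of 8 neutrophil markers 2 and 3. Of 6 T and NK cell markers 2 had a WT and 1 a knockout peak, and of 3 B cell markers 1 and 1, and the part of other cells in the difference between the genotypes was not tested. In heart samples of this kind, fewer cells with a mark and less of the mark per cell cannot be told apart.

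The promoters of 6 of the genes are shown because the NPM1 lists separate them: Il4ra, Socs1, Cish and Irf4 had an NPM1 peak at the start after infarction and in IL-4-treated BMDM, and Il13ra1 and Il2rg had none there in any NPM1 list. Each line gives the 250 bases before the start, 5′ to 3′ on the gene's strand, from RefSeq (GRCm38.p6, the assembly that mm10 names). Capitals mark matches to the motifs described next.

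Il4ra, chr7:125552021-125552270, plus strand: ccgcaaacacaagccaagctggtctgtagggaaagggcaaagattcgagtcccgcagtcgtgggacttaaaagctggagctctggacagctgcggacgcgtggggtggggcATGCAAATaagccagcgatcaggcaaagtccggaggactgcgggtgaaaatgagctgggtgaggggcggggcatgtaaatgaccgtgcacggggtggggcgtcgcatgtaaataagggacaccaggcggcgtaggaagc
Socs1, chr16:10785537-10785786, minus strand: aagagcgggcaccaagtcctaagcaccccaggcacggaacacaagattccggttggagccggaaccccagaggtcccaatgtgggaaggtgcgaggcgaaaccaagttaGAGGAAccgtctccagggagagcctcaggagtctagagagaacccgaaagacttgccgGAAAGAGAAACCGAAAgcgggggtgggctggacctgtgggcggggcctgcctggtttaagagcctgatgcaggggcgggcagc
Cish, chr9:107296409-107296658, plus strand: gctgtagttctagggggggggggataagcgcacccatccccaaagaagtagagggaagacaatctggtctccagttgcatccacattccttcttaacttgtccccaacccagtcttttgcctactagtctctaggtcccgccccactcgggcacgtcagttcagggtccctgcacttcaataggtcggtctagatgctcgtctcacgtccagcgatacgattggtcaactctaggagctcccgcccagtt
Irf4, chr13:30748983-30749232, plus strand: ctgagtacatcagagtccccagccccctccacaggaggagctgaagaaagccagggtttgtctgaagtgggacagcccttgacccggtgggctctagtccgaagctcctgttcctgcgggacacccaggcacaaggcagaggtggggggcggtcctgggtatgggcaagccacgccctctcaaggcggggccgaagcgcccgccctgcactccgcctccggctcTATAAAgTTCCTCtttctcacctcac
Il13ra1, chrX:36111858-36112107, plus strand: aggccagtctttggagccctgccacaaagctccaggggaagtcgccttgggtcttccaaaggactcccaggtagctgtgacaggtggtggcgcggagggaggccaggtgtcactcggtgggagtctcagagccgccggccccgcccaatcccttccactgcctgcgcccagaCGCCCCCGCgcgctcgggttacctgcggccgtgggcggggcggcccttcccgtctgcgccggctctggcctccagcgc
Il2rg, chrX:101268256-101268505, minus strand: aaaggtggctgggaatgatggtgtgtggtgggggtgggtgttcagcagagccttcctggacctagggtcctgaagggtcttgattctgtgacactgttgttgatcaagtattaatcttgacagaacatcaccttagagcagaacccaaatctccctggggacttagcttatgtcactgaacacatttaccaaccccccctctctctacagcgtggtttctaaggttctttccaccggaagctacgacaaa

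The motifs were searched by a script on both strands, in the 250 bases before and 50 after each of 32851 annotated starts. The Socs1 line holds a pair of overlapping matches to GAAANNGAAA, a pattern bound by interferon regulatory factors, 83 to 68 bases before the start, and 3.44% of all promoters hold such a match. The Irf4 line holds a TATAAA box 26 to 21 bases before its start (13.6% of all promoters). GAGGAA, the core that PU.1 binds, was matched in Socs1, Irf4, Stat6 and Egr2 and in 28.3% of all promoters. Il4ra and Egr2 hold the octamer ATGCAAAT (1.74%), Il13ra1 the G-rich EGR pattern GCGGGGGCG (2.91%), and Jak1 the cyclic-AMP response element TGACGTCA (1.79%). Egr2 alone holds a CArG box, the serum response element core (1.63%). The STAT pattern TTCNNNGAA (8.30%) was matched in Cish, at bases 0 to 8 and 11 to 19 counted from the start, past the end of the printed line, as TTCCTGGAA and TTCTTGGAA. None of the 10 promoters holds TTCNNNNGAA, the wider spacing that STAT6 prefers (6.95%), or the EGR pattern GCGTGGGCG (0.612%). These matches describe the letters of the windows only. Il2rg had the lowest GC content of the genes, 50.3%, and 3 CpG dinucleotides in 300 bases, and Il13ra1 had 71% and 28 CpG, against medians of 52.7% and 7 over all promoters.

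At the start sites, NPM1 peaks were called in the infarct and IL-4 lists and in neither control list. Within 1 kb of a start, 0 of the 10 genes had a sham NPM1 peak, where 6.07% of all genes had one, and 0 had an untreated BMDM peak (5.16%). After infarction 7 of 10 had one (49.6%), and after IL-4 8 of 10 (49.5%). The 7 of the infarct list (Il4ra, Jak1, Stat6, Socs1, Cish, Irf4 and Egr2) were all among the 8 of the IL-4 list, and 43.4% of all genes had a start peak in both. The eighth gene was Jak3. All 10 genes had H3K4me3 at the start in the WT list (57.9% of all genes) and in the knockout list (62.8%). NPM1 start peaks went with that mark over the whole genome: among the 9688 genes with H3K4me3 at the start in both genotypes, 81.4% had an infarct and 80.3% an IL-4 NPM1 peak, so 7 and 8 of 10 are near what marked genes have in general. At a −log10 q of 5 or more, 5 of 10 genes kept an infarct start peak (29.4% of all genes) and 5 an IL-4 one (30.6%).

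**Figure D1:**
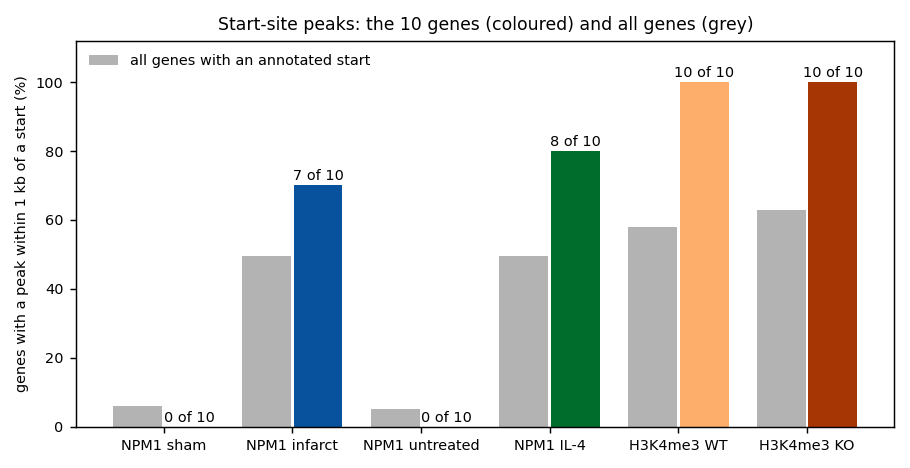
Share of genes with a called peak within 1 kb of an annotated start (%), in each of the 6 lists, for all 17491 genes with an annotated start (grey) and the 10 IL-4 signalling genes (coloured). The coloured bars stand at 0 of 10 in the sham and untreated NPM1 lists, at 7 and 8 of 10 in the infarct and IL-4 lists and at 10 of 10 for H3K4me3, and the grey bars follow the same order of low and high lists.

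Over the whole window of extent and 5 kb, the control lists were not empty. A peak lay in the window of 5 genes in the sham list (52.4% of all genes), 9 in the infarct list (74.9%), 2 in the untreated list (36.2%) and 8 in the IL-4 list (78.3%). Without a start peak, Il2rg counted in the infarct list through a peak beside Med12, and Jak3 through one inside the gene and one beside Unc13a. In the H3K4me3 lists all 10 genes had one, against 77.1% in WT and 72.2% in the knockout. Infarct peaks without a sham peak were found in 4 genes (28.5%) and IL-4 peaks without an untreated peak in 6 (45.5%). The sham list is the shallower one, and the deeper list of each pair was therefore scaled to the background of the shallower. With this scaling the infarct-only count was 3 (26.6% of all genes) and the IL-4-only count 6 (39.8%), and each of the 8 genes kept its start peak in the same lists.

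The windows held 8 sham, 32 infarct, 2 untreated and 31 IL-4 NPM1 peaks, and 40 H3K4me3 peaks in each genotype. This is 8.67 infarct and 8.40 IL-4 peaks per 100 kb, above the 4.38 and 4.92 of all protein-coding genes, whereas the 2.17 sham and 0.542 untreated peaks per 100 kb were below the 2.39 and 1.69 of all genes. H3K4me3, which marked all 10 starts, was also denser in these windows than in all genes, at 10.8 peaks per 100 kb in each genotype against 4.13 in WT and 3.44 in the knockout. Of the sham peaks 7 lay inside a gene and 1 at the other end, and both untreated peaks lay in the flanks, so none touched a start. Of the infarct peaks 12 lay at a start and 11 inside a gene, and of the IL-4 peaks 11 and 14. The sham peaks ranked low in their list, at a median of 89.4% of the list ordered by q (100% is the weakest), against 53.5% for infarct and 38.5% for IL-4.

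**Figure D2:**
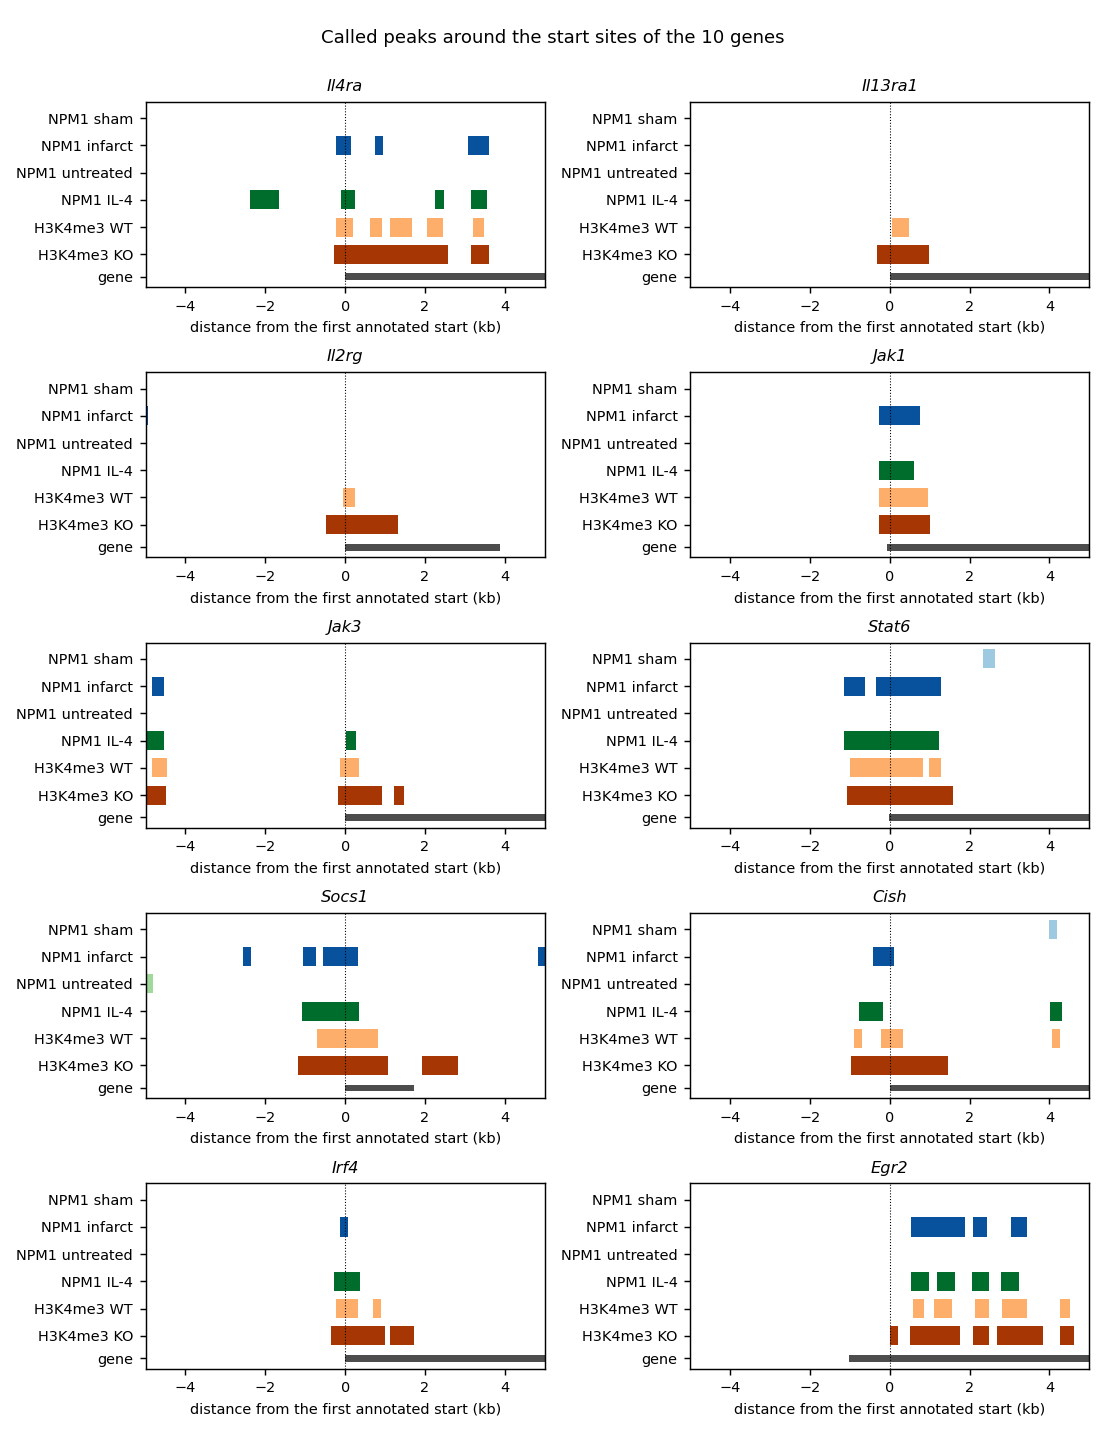
Called peaks (bars) from 5 kb before to 5 kb after the first annotated start of each gene, with distance in kb in the direction of transcription and 1 row per list, the gene in grey. The infarct and IL-4 rows carry bars at the start of 7 and 8 genes, the Il13ra1 panel holds only the 2 H3K4me3 bars, and no sham or untreated bar touches a start.

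Il4ra, the ligand-binding alpha chain (chr7:125552271-125579474, plus strand, mm10), held NPM1 both at its start and inside the gene. The leading infarct peak at the start was 378 bp wide with its summit 26 bp after the start, at the authors' fold enrichment of 3.73 and −log10 q of 5.39. The IL-4 peak was 349 bp wide, at a fold of 3.06 and a −log10 q of 4.13, with its summit 50 bp from the infarct summit. Inside the gene, between 3.07 and 3.61 kb after the start, peaks of 4 lists formed one region that was stronger than the start itself in both NPM1 lists. There the fold was 3.96 after infarction (−log10 q 6.70, rank 12.7%) and 4.56 after IL-4 (−log10 q 11.7, rank 7.72%), and H3K4me3 peaks overlapped it in both genotypes. Just past the far end of the gene, at chr7:125580107-125580579, all lists but the untreated one had a peak. Its sham peak was weak, with a fold of 2.69 and a −log10 q of 0.614.

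Il13ra1 (chrX:36112108-36171262, plus strand), the chain shared by the IL-4 and IL-13 receptors, had no peak in any of the 4 NPM1 lists over its 59.2 kb and both flanks. Il2rg (chrX:101264385-101268255, minus strand), the common gamma chain, had 1 NPM1 peak, from the infarct list, with its summit at −5100 bp from the start and within 1 kb of the neighbouring Med12, at a fold of 2.73 and a −log10 q of 1.13. Both genes had H3K4me3 at their starts, with 10 reads at the WT summit of Il13ra1 and 14 at that of Il2rg. Irf4, which had NPM1 at its start in both lists, had 13 there. Both are X-linked, and among the 268 X-linked genes with H3K4me3 at the start in both genotypes, where 0 of these 2 had NPM1 there, 59% had an infarct and 54.1% an IL-4 start peak.

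Jak1, the kinase bound to several cytokine receptor chains (chr4:101151974-101265282, minus strand, the longest of the genes at 113 kb), had the highest fold at a start of the 7 genes after infarction. Its infarct peak covered 1039 bp at a fold of 5.10 and a −log10 q of 9.10, and its IL-4 peak 878 bp at 5.89 and 14.5, with summits 93 bp apart. Inside the gene 8 further peaks were called in each of the infarct and IL-4 lists. The strongest of the infarct list lay near the other end, with its summit 109532 bp from the start, at a fold of 5.46 and a −log10 q of 9.88. The IL-4 list had a peak over the same place (fold 3.86, −log10 q 5.43), as did the knockout H3K4me3 list (fold 5.62, −log10 q 9.01), but not the WT one. A second shared region, between 24.4 and 25.9 kb after the start, had peaks in the same 3 lists and in WT H3K4me3, at NPM1 folds between 2.88 and 3.19.

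Jak3, the kinase that binds the gamma chain (chr8:71676383-71690577, plus strand), had NPM1 at its start in 1 list only. There was no infarct NPM1 peak and a weak IL-4 one, 252 bp wide, at a fold of 2.75 and a −log10 q of 2.30 (rank 57.2%). That call was lost when the IL-4 list was shortened to the length of the untreated list. The strongest infarct and IL-4 NPM1 peaks in its window, at folds of 4.30 (infarct) and 3.98 (IL-4), lay in the upstream flank at the start of the neighbouring gene Unc13a. A further IL-4 peak inside Jak3, at a fold of 3.15 and a −log10 q of 2.92, lay within 1 kb of the start of Insl3. The 12-read sham peak inside Jak3, with a fold of 4.51 and a −log10 q of 3.68, was the highest ranked sham peak of all 10 genes, at 14.7% of its list.

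Stat6, the transcription factor that the receptor activates (chr10:127642955-127660987, plus strand), had the widest NPM1 start peaks. One IL-4 peak covered 2389 bp around the start, at a fold of 3.49 and a −log10 q of 7.41. The infarct list split the same stretch into peaks of 519 and 1645 bp, of which the wider had a fold of 3.51 and a −log10 q of 6.84, with its summit 45 bp from the IL-4 summit. The sham peak in the gene, at a fold of 4.10, had its summit 2442 bp after the start, where no other list had a peak. The knockout H3K4me3 peak of 2781 bp in the downstream flank lay at the start of Nab2.

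**Figure D3:**
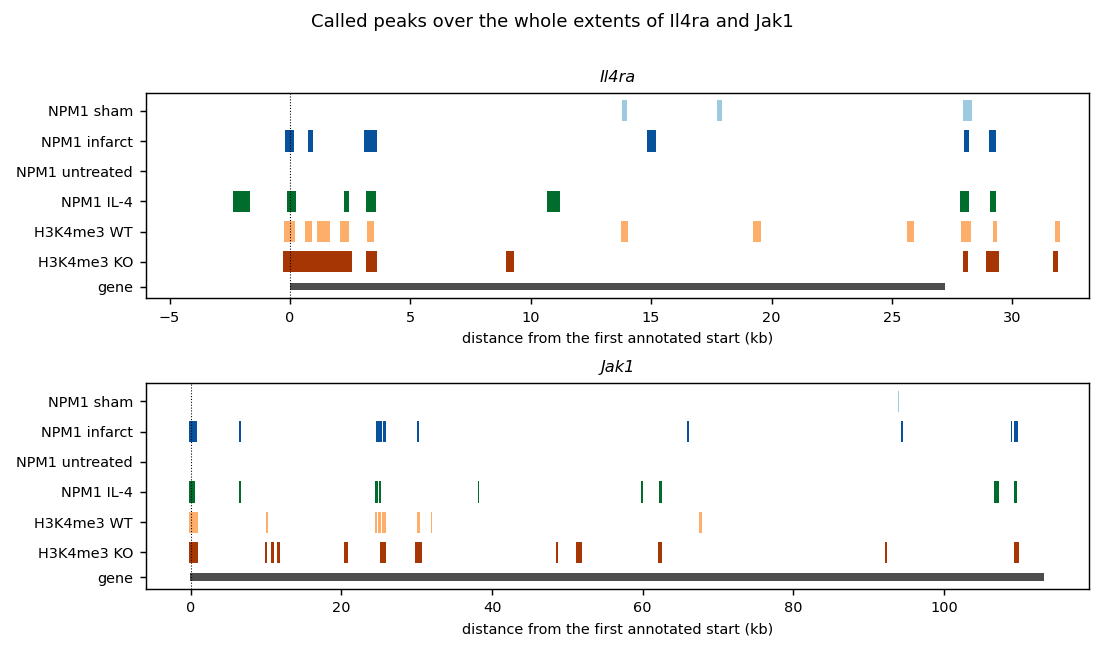
Called peaks over the whole extents of Il4ra and Jak1 with their flanks, 1 row per list, plotted by distance in kb from the first annotated start. The NPM1 infarct and IL-4 rows share bars at both starts, at about 3 kb inside Il4ra, past the Il4ra end, and at about 25 and 109 kb inside Jak1.

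Socs1, the inhibitor that blocks JAK kinases (chr16:10783808-10785536, minus strand, the shortest of the genes at 1.73 kb), had the NPM1 start peak with the highest −log10 q of the 10 genes in the infarct and in the IL-4 list. Its infarct peak was 864 bp wide at a fold of 4.42 and a −log10 q of 12.2, at rank 5.76% of the list. Its IL-4 peak was 1420 bp wide at a fold of 5.21 and a −log10 q of 27.1, at rank 2.05%. The summits of both lay on the same base, 40 bp after the start. Among the genes with an IL-4 start peak, 9.73% had a leading peak of the same or a better rank, against 27.7% in the infarct list. The other infarct and untreated NPM1 peaks of its flanks lay further off, 2 of them at the starts of the neighbouring protamine-cluster genes Tnp2 and Prm3.

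Cish, which encodes CIS, an inhibitor induced through STAT proteins (chr9:107296659-107302784, plus strand), had the weakest start peaks of the feedback genes. The infarct peak of 533 bp had a fold of 2.66 and a −log10 q of 1.93, and the IL-4 peak of 597 bp a fold of 2.49 and a −log10 q of 2.25. Their summits were 649 bp apart, and the IL-4 peak ended before the start, although the peaks themselves overlapped. A region beyond the end of Cish, at chr9:107306314-107307363, had a peak in all lists but the sham one. There the infarct fold was 3.30 (−log10 q 4.35), above that at the Cish start, and the untreated fold 3.33 (−log10 q 1.35).

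Irf4, a factor of the interferon regulatory family needed for alternative activation (chr13:30749233-30766981, plus strand), had a narrow infarct peak at its start and a stronger IL-4 one. The infarct peak was 212 bp wide, with 14 reads at the summit, a fold of 3.72 and a −log10 q of 3.33. The IL-4 peak was 666 bp wide, with 30 reads, a fold of 5.98 and a −log10 q of 13.1, the highest fold at a start among the 10 genes in that list. Its rank was 26.5% of the infarct and 6.55% of the IL-4 list. No NPM1 peak lay inside the gene in any list. The infarct list had a further peak in the downstream flank, with its summit 2565 bp past the other end. Its fold of 3.97 and −log10 q of 3.98 (rank 21.7%) were above those of the infarct start peak.

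Egr2, a zinc finger factor induced by IL-4 (chr10:67534469-67542188, plus strand), has 5 annotated starts and carried a row of NPM1 peaks over them. The infarct list had 3 and the IL-4 list 4. The leading infarct peak, 1353 bp wide at a fold of 3.43 and a −log10 q of 5.10, lay near 732 bp after the first start. The leading IL-4 peak, 431 bp wide at a fold of 3.93 and a −log10 q of 9.90, lay 2239 bp after it, close to the later starts, so the lists put their highest summits 1507 bp apart. The nearest summits of the 2 lists were 5 bp apart. The IL-4 list also had a peak in the upstream flank, with its summit at −6160 bp from the first start. Its fold of 4.05 was above that of the leading IL-4 start peak, and its −log10 q of 5.58 below.

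The heights at the starts can be set side by side once each summit is divided by the background of its list. The number of reads piled up at the summit was recovered from the authors' fold and p, and its 95% exact Poisson interval covers counting error only, since copies from PCR are not independent molecules. In infarct and IL-4 NPM1, Socs1 had 41 (29.4 to 55.6) and 75 (59.0 to 94.0) reads, Irf4 14 (7.65 to 23.5) and 30 (20.2 to 42.8), and Egr2 25 (16.2 to 36.9) and 38 (26.9 to 52.2). For Jak1 the reads were 25 and 34, for Stat6 32 and 34, for Il4ra 23 and 24, and for Cish 17 and 21, and Jak3 had 17 in the IL-4 list alone. Divided by the backgrounds, the IL-4 height relative to the infarct height was 1.55 for Irf4 (interval 0.799 to 3.17), 1.33 for Socs1 (0.894 to 1.99) and 1.10 for Egr2 (0.648 to 1.90). It was 0.986 for Jak1, 0.895 for Cish, 0.770 for Stat6 and 0.756 for Il4ra, against a median of 0.838 over 7585 genes with a start peak in both lists. The ratios of Irf4, Socs1, Egr2, Jak1 and Cish were above that median and those of Stat6 and Il4ra below it. Only 0.831% of those genes had a ratio as high as that of Irf4, and 3.02% one as high as that of Socs1. The intervals of the ratios are 95% exact binomial ones on the infarct and IL-4 reads, with the backgrounds taken as known. The intervals of all 7 ratios include 1 and overlap each other, and differences between the genes were not tested. Only the Socs1 interval (0.894 to 1.99) lay above the median of 0.838, and the others included it. These intervals cover counting error only. At Egr2 and Cish the summits compared were 1507 and 649 bp apart, so these ratios do not describe the same place. The cells differ in tissue and culture as well as in stimulus, so these ratios describe the libraries only.

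**Figure D4:**
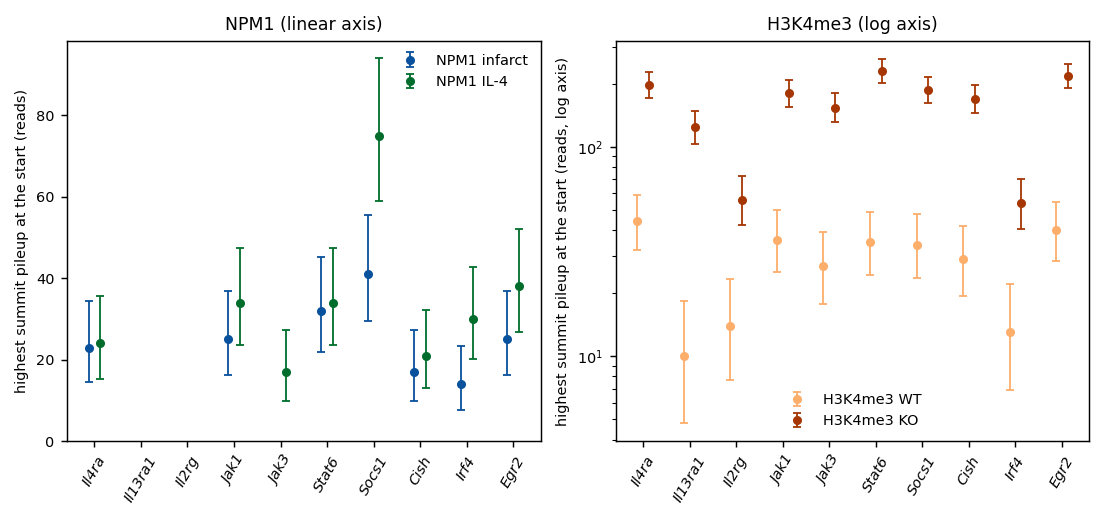
Highest summit pileup at the start of each gene in reads, for NPM1 after infarction and in IL-4-treated BMDM (left, linear axis) and for H3K4me3 in WT and knockout (right, log axis), with 95% exact Poisson bars and no point where no peak was called. Socs1 stands highest in both NPM1 lists, at 41 and 75 reads, Il13ra1 and Il2rg have no NPM1 point, and each knockout H3K4me3 point lies above its WT point.

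NPM1 peaks at the starts of these genes lay over H3K4me3 peaks in all but 1 case in WT. Of the 12 infarct NPM1 start peaks, 11 overlapped a WT H3K4me3 peak and 12 a knockout one, and of the 11 IL-4 start peaks 11 overlapped a WT peak. Away from the starts, 8 of 20 infarct and 10 of 20 IL-4 peaks overlapped a WT H3K4me3 peak. Both H3K4me3 lists came from infarct cardiac macrophages, so the overlaps of IL-4 BMDM peaks set different cells side by side. No share over all genes stands beside the counts at starts or away from them. All 10 genes had H3K4me3 within 1 kb of a start in both genotypes, so the overlaps at starts are not read as a trait of these genes. By gene, 8 of 10 had an infarct NPM1 peak that overlapped a WT H3K4me3 peak (61.5% of all genes), and the exceptions were the X-linked Il13ra1 and Il2rg. At Jak3 the overlapping peaks were those beside Unc13a. Of all infarct peaks in the windows of the 10 genes 59.4% overlapped a WT H3K4me3 peak, against 38.9% over the genome, and of the IL-4 peaks 67.7% against 31.6%. The windows lie in and around genes, which the genome-wide shares do not.

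When the peaks of all lists were merged, the 10 windows held 71 regions. Of these 41 had a peak in 1 list only, 13 in 4 lists, 2 in 5 and 0 in 6. Both NPM1 and H3K4me3 were called in 23 regions, NPM1 alone in 22 and H3K4me3 alone in 26. The infarct and IL-4 lists each had a peak in 28 regions and shared 17 of them. The sham list shared 2 of its 8 regions with the infarct list, and the untreated list 1 of its 2 with the IL-4 list. Regions were formed for the 10 genes only, so no share over all genes stands beside the region counts. Counted by peaks, 25% of the sham peaks in the windows overlapped an infarct peak, against 28.7% of all sham peaks. For untreated peaks and the IL-4 list the shares were 50% and 41.0%. They were 59.4% and 51.1% for infarct peaks overlapping IL-4 peaks, and 61.3% and 38.7% for IL-4 peaks overlapping infarct peaks.

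H3K4me3 at the starts was higher and wider in the knockout list at each of the 10 genes. Within 2 kb of a start, the bases under WT and knockout peaks were 1273 and 2274 at Il4ra, 428 and 1296 at Il13ra1, and 296 and 1807 at Il2rg. For the kinases they were 1222 and 1299 at Jak1 and 471 and 1367 at Jak3, and for Stat6 2122 and 2668. The receptor chain Il2rg had the largest proportional difference and Jak1 the smallest. Among the feedback genes the bases were 1526 and 2310 at Socs1 and 755 and 2434 at Cish, and among the induced factors 752 and 1957 at Irf4 and 1876 and 3163 at Egr2. Knockout coverage exceeded WT at 10 of 10 genes, as it did at 92.6% of the 11898 genes marked in either list. The median over the 10 genes was 988.5 bp in WT and 2115.5 bp in the knockout, a median ratio of 2.19, and over the 10025 genes marked in both lists the median ratio was 1.64.

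**Figure D5:**
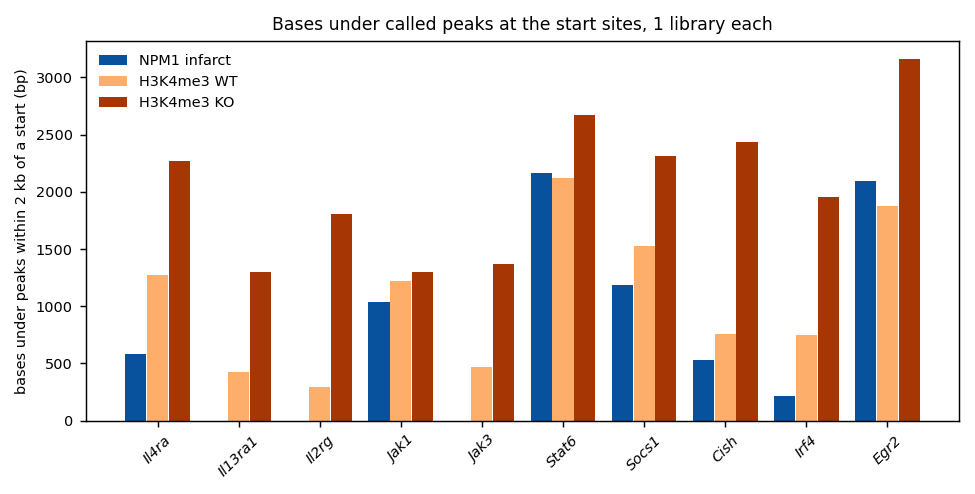
Bases under called peaks within 2 kb of the annotated starts (bp), for infarct NPM1, WT H3K4me3 and knockout H3K4me3, 1 library each; the Egr2 window is longer because it has 5 starts. The knockout bar is the tallest of the 3 at every gene, from 1296 bp at Il13ra1 to 3163 bp at Egr2, and the Jak1 bars of the genotypes differ least.

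The summits showed the same direction. The WT and knockout summits held 44 and 197 reads at Il4ra, 10 and 124 at Il13ra1, and 14 and 56 at Il2rg. They held 36 and 180 at Jak1, 27 and 154 at Jak3, and 35 and 231 at Stat6. At the feedback genes and induced factors they held 34 and 187 (Socs1), 29 and 169 (Cish), 13 and 54 (Irf4) and 40 and 218 (Egr2), so at no gene did the counting intervals of the genotypes overlap. Relative to the list backgrounds the knockout summit was higher at 10 of 10 genes, from 4.69 times at Il2rg to 14.5 times at Il13ra1. The WT peak of Il13ra1 was weak, at a −log10 q of 1.31 and rank 79.5% of its list. At a −log10 q of 5 or more, 7 of the 10 genes kept a WT H3K4me3 peak in their window and 10 a knockout one. No share over all genes at that threshold stands beside these counts. Of the 9688 genes with a start peak in both lists 99.4% were higher in the knockout, with a median ratio of 6.59, and the median of the 10 genes was 6.42. By summit height the difference was thus one of the 2 whole lists, and the IL-4 signalling genes were not set apart from it. By covered bases their median ratio of 2.19 was above the 1.64 of all genes marked in both lists, which was not tested. The authors' fold, which is taken over the reads of the surrounding kilobases, was higher in the knockout at 9 of 10 genes (94.7% of the genes marked in both), from 4.29 beside 3.96 at Egr2 to 10.1 beside 2.81 at Il13ra1. The exception was Il4ra, where the knockout summit of 197 reads stood over a local background of 61.3 reads, giving a fold of 3.18 beside 4.55 in WT.

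The starts of other genes of the pathway were counted in the same way. Over all genes with an annotated start, 49.6% had an infarct and 49.5% an IL-4 NPM1 start peak. Among genes with H3K4me3 at the start in both genotypes these shares were 81.4% and 80.3%. Of 20 further genes of IL-4 signalling with an annotated start, 18 had an infarct and 18 an IL-4 NPM1 start peak, 17 a WT and 18 a knockout H3K4me3 peak, and 0 a sham or untreated NPM1 peak; without NPM1 were Il13, a ligand, and Il13ra2, the decoy receptor. The strongest of them was Stub1, a ubiquitin ligase, at an infarct fold of 6.33 (−log10 q 33.9) and an IL-4 fold of 7.46 (−log10 q 46.7), ahead of every one of the 10 genes by q. Of 17 relatives of the JAK, STAT, SOCS, IRF and EGR families 15 had an NPM1 start peak in each of the infarct and IL-4 lists, led by Stat3, the factor of IL-6 and IL-10 signalling, at folds of 8.21 and 8.91 (−log10 q 47.1 and 64.3). Jak2, Tyk2 and Socs3 were counted both among these relatives and among the 20 further genes. Of 6 further cytokine receptor chains (Il2ra, Il7r, Il9r, Il15ra, Il21r and Crlf2), 2 had an infarct start peak (Il7r and Crlf2) and 3 an IL-4 one (those and Il21r). Of 9 effector genes with an annotated start that IL-4 induces, 4 had an NPM1 start peak in the infarct and 4 in the IL-4 list. In the sham list 1 of them, Fcer2a, had one. An H3K4me3 start peak was called in WT at 3 and in the knockout at 3 of these 9. It was called at 4 and 4 of the 6 further receptor chains and at 15 and 16 of the 17 relatives. The effector genes Arg1, Ccl24, Myc, Clec10a, Tgm2, Alox15 and Ppargc1b had no annotated start and were not counted. Pparg, a lipid-sensing nuclear receptor, and Klf4, a zinc finger factor, had folds of 6.28 and 4.50 after infarction and 5.64 and 4.90 after IL-4. The marker genes Retnla, Chil3, Ccl22 and Pdcd1lg2 had no NPM1 start peak in any of the 4 lists.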

How the data were processed

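Peak lists of 6 CUT&Tag libraries, 1 per group, were read. Not analysed here were 4 further libraries, for H3K4me3 and K5, of WT and knockout BMDM given IL-4. Per the submitters' processing notes, the tools named are MACS2 2.2.7.1, Bowtie2, deepTools and bcl2fastq 2.17, and the build is mm10. The sources used here do not give settings, duplicate handling or control libraries. Each deposited list gives for a peak its position, a score, a fold enrichment (a ratio of summit pileup to local background, each with 1 added), the −log10 of p and of q, and a summit offset. The deposited score was within 1 of 10 times the −log10 p in all peaks. Deposited widths began at 200 bp, and by list 5.01% to 27.8% of peaks exceeded a q of 0.05.

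No read totals were used, and depth was inferred from the peaks: the fold and p fix a whole-number pileup, found within 0.001 for 99.9% of peaks, and the commonest local background of a list stands for its genome-wide background. Genes were taken from the GRCm38.p6 gene table and starts from the RefSeq promoter table. A gene counted as having a peak at an overlap of 1 bp or more. All 10 genes are named in every list, and of the other lists of genes up to 3 by q or those that complete a count. Neighbours are named at some, not all, of the peaks that lay within 1 kb of them. The genes and lists were chosen with earlier results of these data known. The shares among H3K4me3-marked and X-linked genes and the summit ratios were added after the values were seen. Alternatives were stricter q, other windows, summit position, equal list lengths, scaled depth and a 50% overlap. Where no peak is listed, none was called at the depth of that library. The code was tested on simulated data and run with Python 3.11.15, numpy 2.4.6, pandas 2.3.3, scipy 1.17.1 and matplotlib 3.10.9.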

Additional observations from a re-analysis of the deposited data

How the results depend on the processing

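Of 77 recomputed counts over the 10 genes, 67 stayed within 1.5 times the reported value, among them all recomputed counts of genes with an infarct, IL-4 or H3K4me3 peak and of genes with more H3K4me3 coverage in the knockout. The sham count of 5 genes became 3 with peaks of q 0.05 or less, 0 at a −log10 q of 5 or more, 1 within 1 kb of both gene ends and 0 within 1 kb of the start. The untreated count of 2 became 1 at q of 0.05 or less and 0 at a −log10 q of 5 or more, within 1 kb of the extent, of both ends or of the start. The infarct-only count of 4 became 7 at the start, by construction, since no sham peak lay there. By gene, 44 of 50 recomputed numbers of NPM1 lists with a start peak were unchanged. At a −log10 q of 5 or more Il4ra and Irf4 kept 1 list of 2 and Cish and Jak3 none, and with lists of equal length Cish kept 1 and Jak3 none. No paired analysis was possible because each group had 1 library.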
